A study of Mus musculus with 4 samples.

Results

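F-box proteins are the substrate-binding subunits of SCF ubiquitin ligases. The genes examined here are those that the array annotation names Fbxl, Fbxo or Fbxw followed by a digit: 73 genes with 127 probes, of 28149 genes with 41174 probes on the array. They comprise 18 Fbxl genes, whose proteins carry leucine-rich repeats, 19 Fbxw genes, whose proteins carry WD40 repeats, and 36 Fbxo genes, whose proteins carry other or no known binding domains. Each gene was represented by its brightest probe, the one with the highest mean log2 signal over the 4 arrays, and 57 of the 73 genes could be tested. The family was defined by gene name, but it was chosen with earlier results of these data known.

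The series compared miR-223 knockout (KO) with wild-type (WT) bone marrow cells of male C57BL/6 mice. Marrow of both genotypes was held in GM-CSF (40 ng/ml), the growth factor of granulocytes and macrophages, over 4 days, and the expanding immature granulocytes were then sorted. Cy3-labelled RNA of 2 KO and 2 WT samples was read on 4 Agilent mouse arrays, which were on 1 slide. The labels give no age, no description of the miR-223 allele and no statement that replicates came from separate animals or cultures, so p-values measure only the spread between these samples, which may be technical.

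In an SCF ligase, the cullin Cul1 is a scaffold that holds the RING protein Rbx1, which recruits the ubiquitin-loaded E2 enzyme, and the adaptor Skp1, which binds the F-box motif. The F-box protein on Skp1 chooses which protein is ubiquitinated, often one that has been phosphorylated, and Nedd8 attached to the cullin switches the ligase on. F-box proteins set the abundance of cyclins, of transcription factors such as Myc and Jun, and of inflammatory signalling proteins, and Fbxw7 restrains the cycling of blood stem cells. miR-223 is a microRNA of the myeloid lineage that represses messenger RNAs with sites complementary to its seed, and Fbxw7 has been named in the literature as one of its targets.

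The mature forms of miR-223 are printed because they are what the KO cells lack. The sequences are those of RefSeq, assembly GRCm38.p6, with the seed (bases 2 to 8 from the 5′ end) in capitals.
mmu-miR-223-3p: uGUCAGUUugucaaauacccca
mmu-miR-223-5p: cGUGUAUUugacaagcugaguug
The arms do not share a seed. The 7 letters AACTGAC, complementary to the seed of miR-223-3p, occurred in the same strand of 0 of the 127 F-box probes and of 153 of all 41174 probes (0.372%). A probe covers a short stretch of a transcript, so the absence of these letters from the probes says nothing about sites elsewhere in the messages.

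The promoter stretches of Fbxo8 and of 4 Fbxw genes are printed because the genes that differed most between genotypes are Fbxo8 and members of an Fbxw gene cluster on chromosome 9 whose promoters are close copies of each other. Each is the 150 bases just before the start site in RefSeq (GRCm38.p6), 5′ to 3′ on the gene's strand. In Fbxo8 (chr8:56551004-56551153, plus strand), capitals mark the letters ACTTCCGG, the core of a binding motif of ETS factors. In the Fbxw genes, capitals mark bases unlike the aligned base of Fbxw24.
Fbxo8: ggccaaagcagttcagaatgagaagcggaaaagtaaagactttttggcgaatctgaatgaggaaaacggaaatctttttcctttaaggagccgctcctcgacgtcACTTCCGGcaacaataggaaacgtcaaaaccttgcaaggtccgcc
Fbxw24: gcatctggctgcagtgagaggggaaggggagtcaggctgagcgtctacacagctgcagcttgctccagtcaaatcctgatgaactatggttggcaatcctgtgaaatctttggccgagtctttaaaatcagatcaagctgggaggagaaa
Fbxw15: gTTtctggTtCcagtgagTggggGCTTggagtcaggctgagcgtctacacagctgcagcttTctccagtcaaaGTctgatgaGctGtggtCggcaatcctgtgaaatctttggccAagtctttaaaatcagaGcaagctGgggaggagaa
Fbxw21: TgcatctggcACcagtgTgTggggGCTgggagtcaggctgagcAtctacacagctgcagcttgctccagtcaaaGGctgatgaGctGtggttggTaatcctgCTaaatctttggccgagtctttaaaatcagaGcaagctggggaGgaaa
Fbxw26: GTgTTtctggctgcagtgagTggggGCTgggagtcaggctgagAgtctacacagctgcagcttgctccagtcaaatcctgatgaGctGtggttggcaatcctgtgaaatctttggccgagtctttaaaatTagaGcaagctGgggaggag
The Fbxw stretches lie at chr9:109626060-109626209, minus strand (Fbxw24), chr9:109568263-109568412, minus strand (Fbxw15), chr9:109162023-109162172, minus strand (Fbxw21) and chr9:109746090-109746239, minus strand (Fbxw26). Of the 150 bases, 132 of Fbxw15, 132 of Fbxw21 and 136 of Fbxw26 matched Fbxw24. The table of promoters, each of 300 bases around the start, held 54 of the 73 genes (75 promoters).

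The ETS letters ACTTCCGG were searched on both strands of the 300-base promoters together with CCAAT and TATAAA, none of which contains another. ACTTCCGG stood in 4 of 75 F-box promoters (5.33%), against 3.89% of all 32851 promoters in the table. Its 4 genes differed in unlike ways between genotypes: Fbxo8 had a log2 difference of 1.35, Fbxw9 of -0.17, Fbxo22 of -0.08 and Fbxl21 of -0.60 (KO minus WT). CCAAT stood in 22 of 75 F-box promoters (29.3%), against 37.4% of all, and TATAAA in 1 of 75 (1.33%), against 13.6% of all. Among the 8 cluster genes with a promoter in the table, 1 held CCAAT and 0 held either of the other motifs.

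Of the 57 F-box genes tested, none passed an adjusted p of 0.05 by limma with Benjamini-Hochberg adjustment over the 16583 genes tested in all, of which 0% passed, and the smallest adjusted p of an F-box gene was 0.217. At an unadjusted p under 0.05 there were 11 F-box genes (19.3% of those tested), against 13.6% of all tested genes. These 11 comprised 10 that were higher in KO cells (17.5%, against 8.03% of all genes) and 1 that was lower (5.55% of all genes were lower). Fbxw24 and Fbxw22 among the higher ones entered the test through the KO arrays only. Among the 54 genes above background on all 4 arrays, 9 had an unadjusted p under 0.05, and 8 of these were higher. Under the same filter, 13.9% of all genes had such a p in either direction, and higher ones were not counted separately. Differences are log2 levels in KO minus log2 levels in WT cells, where a level is the log2 signal of a probe less the 75th percentile of its array, given with limma's moderated standard error (SE) from 2 arrays per group. The median difference over the 57 genes was 0.07, with a range of -0.62 to 2.04, beside a median of 0.03 over all tested genes, and 36 of 57 genes were above 0 (54.8% of all genes were). Both KO arrays stood above both WT arrays in 21 genes (36.8%, against 28% of all genes) and below both in 7 (12.3%, against 20.1%), and the arrays of the genotypes overlapped in 29. The 28 genes without overlap were 49.1% of the family, against 48.1% of all genes.

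Fitted differences of at least 2-fold were found in 5 F-box genes (8.77%), against 3.59% of all genes, and all 5 were higher in KO cells. For Fbxw24, dim on both WT arrays, the data show only at least 1.98-fold, and Fbxw22 was above background on 1 of 2 WT arrays. The 5 were Fbxo8 and 4 genes of the Fbxw cluster on chromosome 9, Fbxw15, Fbxw22, Fbxw24 and Fbxw27. The cluster was singled out after its values had been seen. The 51 tested F-box genes outside it had a median difference of 0.06, with 7 at an unadjusted p under 0.05 (13.7%) and 6 of these higher, so that their share of low p-values was near that of all genes (13.6%). By subfamily, 3 of 15 tested Fbxl genes, 4 of 28 Fbxo genes and 4 of 14 Fbxw genes had an unadjusted p under 0.05, and the subfamilies' medians were 0.07, 0.05 and 0.10 in that order.

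**Figure D1:**
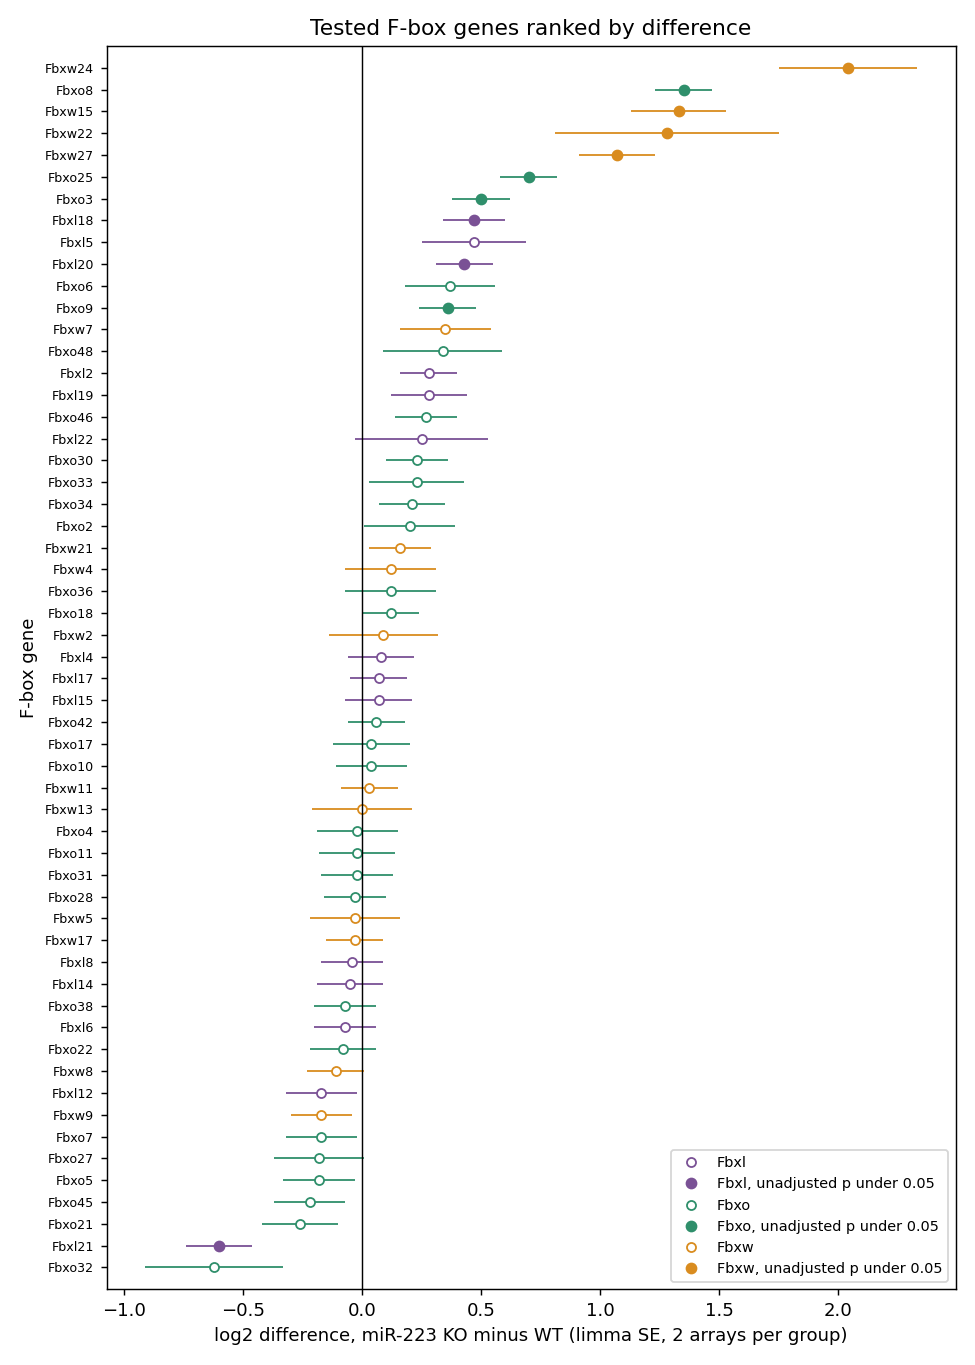
Log2 difference (KO minus WT, horizontal axis) of the tested F-box genes, all but 1 of the 57, 1 row per gene in order of the difference. Points are limma estimates, bars are 1 SE on either side, colours are subfamilies, and filled points have an unadjusted p under 0.05; Fbxw24, Fbxo8, Fbxw15, Fbxw22 and Fbxw27 stand at 1.07 or above, and the lowest gene is Fbxo32 at -0.62.

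Fbxo8, whose protein combines an F-box with a Sec7 domain and acts on the small GTPase Arf6, had the smallest p of the family. Its brightest probe (chr8:59070365-59070424, build mm9) stood at 0.41 and 0.35 on the KO arrays, against -0.96 and -0.99 on the WT arrays. The gap between genotypes was far wider than the gap within either: the difference was 1.35 ± 0.12 (SE, n = 2 each), or 2.55-fold higher in KO cells, with an unadjusted p of 0.000203 and an adjusted p of 0.217 by limma. The second Fbxo8 probe (chr8:59071604-59071663, mm9) read -5.62 and -5.70 on the KO arrays, against -6.79 and -6.18 on the WT arrays. That probe was well above background on both KO arrays and on neither WT array, so its fold is only a bound, at least 1.26-fold higher in KO cells. The bound takes the KO mean over a WT value at which each array is set to the lowest level of any probe well above background there, or to the probe's own where that is higher. The first probe thus stood higher on both KO arrays, at a level well clear of background. The second passed the filter through the KO arrays only. Both its KO levels lay below -5.39, the lowest level of any probe well above background on WT replicate 2. Against that array, the second probe therefore shows no measured difference.

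Fbxw7 recognises phosphorylated cyclin E, Myc, Jun, Notch and Mcl1. Its brightest probe (chr3:84781446-84781505, mm9) stood at 0.05 and 0.08 on the KO arrays, against -0.07 and -0.50 on the WT arrays. The arrays of the genotypes did not overlap, but the WT arrays were farther apart from each other than the first of them was from the KO arrays. The difference of 0.35 ± 0.19 (SE, n = 2 each) had an unadjusted p of 0.129 and an adjusted p of 0.482 by limma. It was 0.13 without WT replicate 2 and 0.57 without WT replicate 1. The second Fbxw7 probe (chr3:84774762-84774821, mm9) overlapped between genotypes, at -2.23 and -2.33 on the KO arrays and -2.12 and -2.54 on the WT arrays, with a difference of 0.05 ± 0.19. Neither probe of this literature target therefore gave a difference beyond the spread between replicates.

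**Figure D2:**
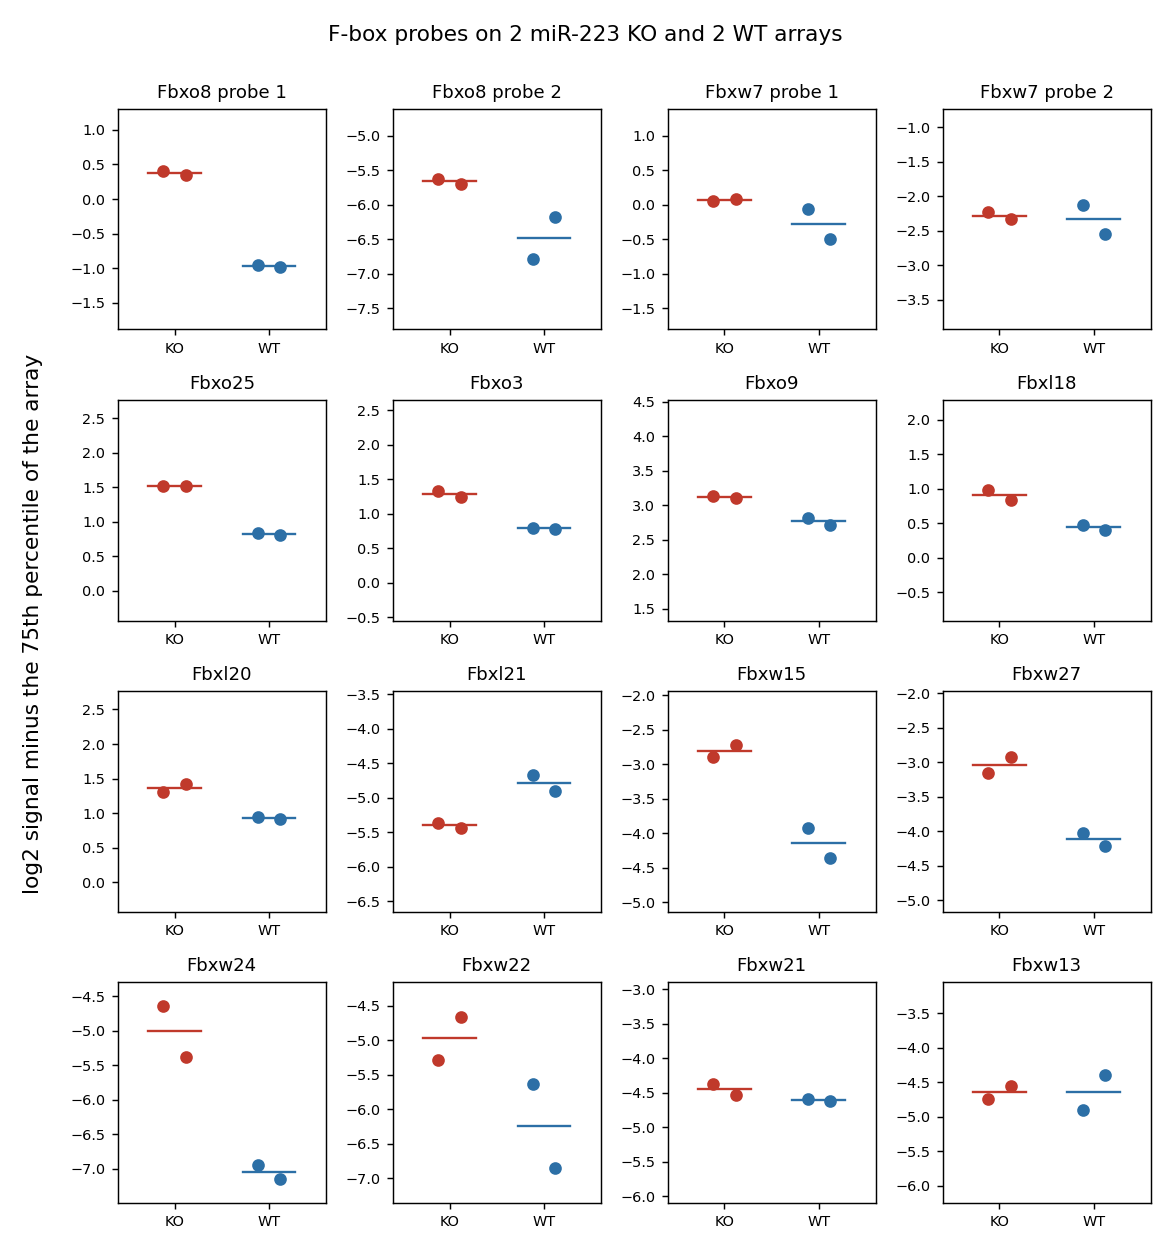
Log2 level (log2 signal minus the array's 75th percentile, vertical axis, each panel spanning the same number of log2 units) of 16 F-box probes on 2 KO arrays (red, left) and 2 WT arrays (blue, right). Points are arrays and lines are group means; the Fbxo8 arrays stand at 0.41 and 0.35 in KO against -0.96 and -0.99 in WT cells, while those of the second Fbxw7 probe and of Fbxw13 overlap.

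The Fbxw cluster is a run of tandem gene copies. Its 11 genes with probes on the array lie on chromosome 9 between 109042040 and 109672648 (mm9), over 631 kb. Of the 11, 6 were tested and 5 (Fbxw14, Fbxw16, Fbxw18, Fbxw19 and Fbxw26) were not well above background on any array. For Fbxw15, whose protein in mouse cells has been linked to turnover of the histone acetyltransferase Kat7, the probe (chr9:109455193-109455252, mm9) read -2.89 and -2.72 on the KO arrays, against -3.92 and -4.35 on the WT arrays. It was above background on all 4 arrays, with a difference of 1.33 ± 0.20 (2.51-fold, unadjusted p 0.00171, adjusted p 0.240 by limma).

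Fbxw27 had a difference of like size. Its probe (chr9:109672589-109672648, mm9) stood at -3.16 and -2.92 on the KO arrays, against -4.02 and -4.21 on the WT arrays, a difference of 1.07 ± 0.16 (2.1-fold, unadjusted p 0.0016, adjusted p 0.240 by limma). Both KO arrays lay above both WT arrays by more than the arrays of a genotype lay apart.

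Fbxw24 and Fbxw22 were dimmer. The probe of Fbxw24 (chr9:109509663-109510577, mm9, a span longer than the probe) read -4.64 and -5.38 on the KO arrays, against -6.94 and -7.15 on the WT arrays, neither of which was above background. The fitted difference of 2.04 ± 0.29 (unadjusted p 0.00139, adjusted p 0.240 by limma) therefore rests on WT values without a level, and the fold is at least 1.98 higher in KO cells. Fbxw22 (chr9:109287484-109287543, mm9) stood at -5.28 and -4.66 on the KO arrays, against -5.63 and -6.85 on the WT arrays, of which 1 of 2 was above background. Its difference of 1.28 ± 0.47 had an unadjusted p of 0.049, and the WT arrays were farther apart than the nearest KO and WT arrays. It was 0.67 without WT replicate 2 and 1.89 without WT replicate 1.

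The other measured members of the cluster differed little. Fbxw21 (chr9:109042040-109042099, mm9) stood at -4.37 and -4.53 on the KO arrays, against -4.59 and -4.62 on the WT arrays, a difference of 0.16 ± 0.13. Fbxw13 (chr9:109081888-109083542, mm9) overlapped fully, at -4.74 and -4.56 on the KO arrays and -4.90 and -4.40 on the WT arrays. These were the first genes of the run by position, and the 4 with the larger fitted differences lay farther along it. The 40 measured probes of 26 other genes in the run and within 500 kb on either side had a median difference of -0.06 and a range of -0.59 to 0.50, so that no neighbour reached the value of any of the 4 genes. Among them were Camp, a cathelicidin of specific granules, at -0.18, and the phosphatase Cdc25a at -0.33 on its brighter probe.

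**Figure D3:**
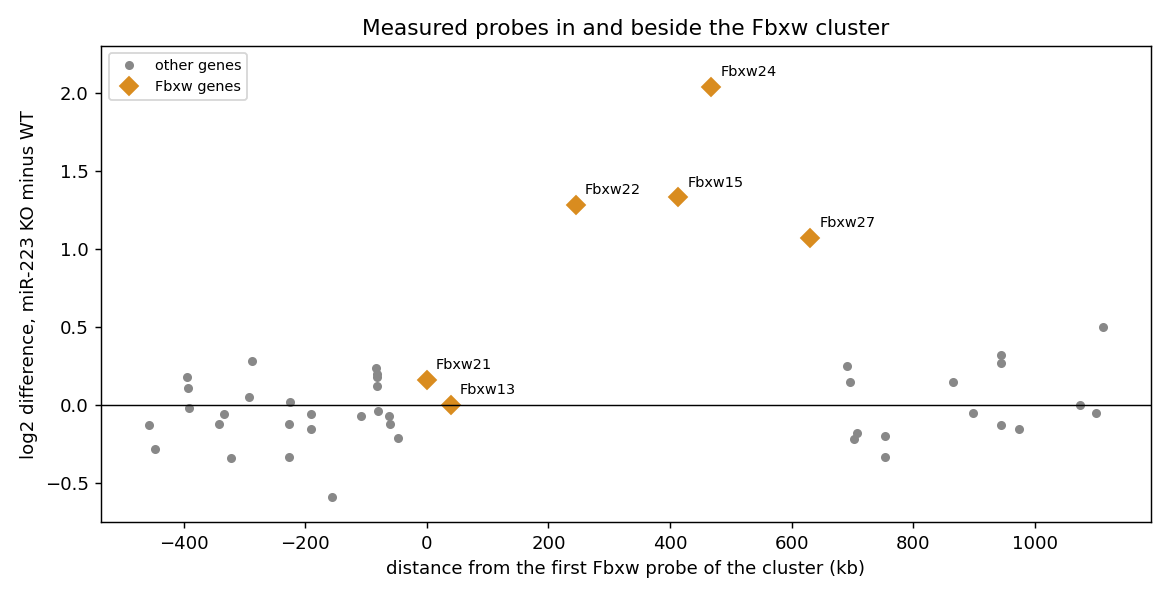
Log2 difference (KO minus WT, vertical axis) of measured probes against distance from the first Fbxw probe of the cluster (kb, horizontal axis). Orange diamonds are Fbxw genes and grey points are other genes: Fbxw22, Fbxw15, Fbxw24 and Fbxw27 stand between 1.07 and 2.04, whereas the other genes lie between -0.59 and 0.50.

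The copies are alike, which bears on what a probe measures. Over the 300-base promoters of the 8 cluster genes in the table, identity was 78.0% to 94.0% (median 88.3%, 28 pairs), against 49.7% to 68.7% (median 58.0%, 1035 pairs) among other F-box genes. Promoters of Fbxw24, higher in KO cells, and Fbxw26, dim on all arrays, were the most alike at 94.0%, and those of Fbxw15 and Fbxw24 had 90.7%. Pairs of 1 higher and 1 dim gene had a median identity of 88.8%, and pairs of dim genes of 86.8%, over the 300-base promoters. The 60-base probes were compared only with each other. A probe of the 4 higher genes differed from any other probe of the cluster by at least 21 of 60 bases by edit distance. The longest run shared with one was 11 bases. Probes of the same gene differed as much, by 26 bases in Fbxw21. These distances therefore do not tell whether a probe binds the message of another copy. Binding of these probes to messages of other cluster genes was not tested, so which copy gave the signal is uncertain.

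The values of the cluster depended on the treatment of background. With normexp correction, which adds an offset of 50 to the intensity and so shrinks differences of dim probes, they were 0.46 for Fbxw15, 0.46 for Fbxw27, 0.14 for Fbxw24 and 0.05 for Fbxw22, while Fbxo8 kept 1.14. Among all genes with a mean level below -4, where Fbxw24 and Fbxw22 lie, 11.3% differed at least 2-fold, against 3.59% over all levels. The KO arrays had 62.2% and 63.1% of probes above background, against 63.5% on WT replicate 1 and 57.6% on WT replicate 2, and the part of WT replicate 2 in the differences of dim probes was not tested beyond the values without it.

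Outside the cluster, 6 genes besides Fbxo8 had an unadjusted p under 0.05, all but Fbxl21 higher in KO cells. Fbxo25, a relative of the muscle ligase Fbxo32 that has been tied to the transcription factor Elk1, read 1.52 and 1.51 on the KO arrays, against 0.83 and 0.81 on the WT arrays (difference 0.70 ± 0.12, 1.62-fold, unadjusted p 0.00297, adjusted p 0.242 by limma). Its second probe stood at -4.61 and -4.43 in KO, against -4.90 and -4.96 in WT cells, a difference of 0.42 ± 0.14. Both probes of Fbxo25 separated the genotypes.

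Fbxo3, which in lung and immune cells targets Fbxl2 and thereby affects TRAF adaptor levels, stood at 1.33 and 1.24 on the KO arrays, against 0.80 and 0.78 on the WT arrays (0.50 ± 0.12, unadjusted p 0.0123). Its other probes differed from each other: the second overlapped, at 0.34 and 0.32 in KO and 0.45 and 0.26 in WT cells, a difference of -0.02. The third was higher on both KO arrays, at -5.65 and -5.79, against -6.16 and -7.6 on the WT arrays, of which 1 of 2 was above background, a difference of 1.16 ± 0.49. Those 2 probes carry the accession of another transcript of the gene than the brightest probe does.

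Fbxl18, known for targeting Fbxl7, and Fbxl20, known in mouse brain for turnover of the synaptic protein Rim1, showed the same split between probes. Fbxl18 had 0.98 and 0.83 on the KO arrays, against 0.48 and 0.40 on the WT arrays (0.47 ± 0.13, unadjusted p 0.0205), and its second probe a difference of 0.01 ± 0.14. Fbxl20 had 1.31 and 1.42 on the KO arrays, against 0.94 and 0.92 on the WT arrays (0.43 ± 0.12, unadjusted p 0.0206), and its second probe a difference of 0.13 ± 0.15. In both genes the brightest probe separated the genotypes and the dimmer one did not differ beyond its SE.

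Fbxo9, which in human myeloma cells acts on regulators of mTOR complexes, stood at 3.14 and 3.11 on the KO arrays, against 2.82 and 2.72 on the WT arrays (0.36 ± 0.12, unadjusted p 0.0392). Fbxl21, which acts on the cryptochromes of the circadian clock, was the only member lower in KO cells at that p, at -5.36 and -5.43 on the KO arrays, against -4.67 and -4.90 on the WT arrays (-0.60 ± 0.14, unadjusted p 0.0109). With normexp its difference was -0.22. The KO levels of Fbxl21 lay near -5.39, the lowest level of any probe well above background on WT replicate 2. A second Fbxl21 probe was above background on neither KO array and on only 1 WT array, and was not tested.

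Fbxl5, the iron sensor that directs turnover of the iron regulatory protein Ireb2, had 4 measured probes, all higher in KO cells. The brightest read 1.73 and 2.0 on the KO arrays, against 1.15 and 1.63 on the WT arrays (0.47 ± 0.22, unadjusted p 0.0893). That difference was 0.23 without WT replicate 1 and 0.71 without WT replicate 2. The others had differences of 0.36, 0.70 and 0.98. The largest came from a probe of another transcript accession (chr5:44136364-44136423, mm9), at 1.29 and 1.53 on the KO arrays, against 0.46 and 0.41 on the WT arrays. The 4 probes share 1 gene and the same arrays and are not replicates.

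F-box genes with roles in the cell cycle and growth, a list of 9, gave 8 tested genes with a median difference of -0.07, and 2 were above 0. None had an unadjusted p under 0.05. Apart from Fbxw7, their differences lay between -0.18 and 0.03. Fbxo5, the inhibitor of the anaphase-promoting complex known as Emi1, read 2.89 and 3.01 on the KO arrays, against 3.24 and 3.01 on the WT arrays (-0.18 ± 0.15), the groups meeting at 2 decimals. Fbxw11, which with Btrc marks phosphorylated IκBα and β-catenin, read 4.29 and 4.31 on the KO arrays, against 4.22 and 4.32 on the WT arrays (0.03 ± 0.12). Its difference was -0.04 with normexp, and a second probe had 0.63 ± 0.29.

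On their brightest probes, the other genes of that list differed little. Fbxl12, Fbxo7, Fbxw8, Fbxo31 and Fbxo4, which act on cyclin-dependent kinase inhibitors, Cdk6 complexes, Cul7 ligases or cyclin D1, had differences of -0.17, -0.17, -0.11, -0.02 and -0.02 in that order, with SEs of 0.12 to 0.17. The other Fbxo4 probes had -0.40 ± 0.28 and 0.25 ± 0.13, the latter above background on 1 of 2 WT arrays. Fbxo43, the meiotic relative of Fbxo5, was not above background on any array.

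Genes tied to immune signalling and survival gave 4 tested members with a median of 0.16. Besides Fbxo3, Fbxl2, which directs turnover of TRAF proteins, stood at -1.70 and -1.73 on the KO arrays, against -1.96 and -2.03 on the WT arrays (0.28 ± 0.12, unadjusted p 0.0732), and its second probe had 0.39 ± 0.15. Fbxo11 targets Bcl6, and Fbxo10 targets Bcl2 in lymphoma cells. On their brightest probes both overlapped between genotypes, with differences of -0.02 ± 0.16 and 0.04 ± 0.15 in that order. The second Fbxo11 probe did not overlap, at -2.01 and -2.04 on the KO arrays, against -2.34 and -2.25 on the WT arrays (0.27 ± 0.13). The second Fbxo10 probe had -0.09 ± 0.19.

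The sugar-binding F-box proteins recognise glycoproteins with high-mannose chains. Of 5 listed genes, 4 were tested, with a median of 0.12. Fbxo2, whose probe was the brightest of the family, read 7.75 and 7.79 on the KO arrays, against 7.35 and 7.79 on the WT arrays (0.20 ± 0.19). The groups overlapped. Its 2 other probes were far dimmer, with mean levels of -1.90 and -3.04 on the KO arrays, and had differences of 0.30 and -0.27. Which of the Fbxo2 probes reads the message of the gene was not tested. Fbxo6 read 3.37 and 3.56 on the KO arrays, against 2.91 and 3.30 on the WT arrays (0.37 ± 0.19, unadjusted p 0.115), a difference of 0.17 without WT replicate 1 and 0.56 without WT replicate 2. Its second probe gave 0.38, while Fbxo27 and Fbxo17 had -0.18 and 0.04.

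Fbxo44 was above background on 1 KO and 1 WT array and was not tested.

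Among genes known from muscle and nerve, Fbxo32 (atrogin-1, a ligase of muscle wasting) had the most negative difference of the family, at -4.66 and -4.67 on the KO arrays, against -4.45 and -3.64 on the WT arrays (-0.62 ± 0.29, unadjusted p 0.0966). It was -0.22 without WT replicate 2, -1.02 without WT replicate 1 and -0.20 with normexp. Fbxo30, a muscle ligase of the bone morphogenetic protein pathway, had 0.23 ± 0.13, and Fbxo45, which acts at synapses, had -0.22 ± 0.15. Fbxo40 was not above background on any array, and Fbxo41 was above it on 1 KO and 1 WT array.

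The other brightest probes of the family belonged to Fbxl14, which targets Snai1, and to Fbxo18, a DNA helicase now named Fbh1, besides Fbxo2, Fbxw11 and Fbxo6. Fbxl14 read 4.01 and 3.97 on the KO arrays, against 4.17 and 3.92 on the WT arrays (-0.05 ± 0.14). A far dimmer Fbxl14 probe had mean levels of -2.13 in KO and -1.98 in WT cells, a difference of -0.15 ± 0.13. Fbxo18 read 3.58 and 3.56 on the KO arrays, against 3.41 and 3.49 on the WT arrays (0.12 ± 0.12). Brightness here is that of a probe and not an amount of transcript.

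On their brightest probes, the remaining tested members differed by at most 0.34 in either direction, each with an unadjusted p above 0.05. Those named for their small p were Fbxo46 (0.27), Fbxl19 (0.28), Fbxo34 (0.21), Fbxo48 (0.34, above background on 1 of 2 WT arrays), Fbxo21 (-0.26), Fbxw9 (-0.17) and the others given above. Fbxo33, which targets the cold-shock protein Ybx1, had 0.23 on its brightest probe and -0.15 and -0.10 on the others. Fbxo28 had -0.03 on its brightest probe and 0.02 and 0.44 on the others, the last with an unadjusted p of 0.0362 by limma. Also tested were Fbxl4, Fbxl6, Fbxl8, Fbxl15, Fbxl17 and Fbxl22 among Fbxl genes, Fbxo22, Fbxo28, Fbxo36, Fbxo38 and Fbxo42 among Fbxo genes, and Fbxw2, Fbxw4, Fbxw5 and Fbxw17 among Fbxw genes. The members dim on all arrays and not named so far were Fbxl7, Fbxl13, Fbxl16, Fbxo15, Fbxo16, Fbxo24 and Fbxo39. Dim members in all numbered 14, and 54 of the 73 genes were above background on every array.

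Of 29 F-box genes with 2 or more measured probes, all probes shared a sign in 18 and signs were mixed in 11. The median range between probes of a gene was 0.29, wider than the median gap of 0.09 between the KO arrays and of 0.21 between the WT arrays over the 57 genes, and it was under 0.2 in 13 genes. The widest range was that of Fbxo3, 1.18. Fbxl22 showed the reverse of Fbxl18: its brightest probe had 0.25 ± 0.28 and its second, above background on 1 of 2 WT arrays, 0.92 ± 0.16.

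**Figure D4:**
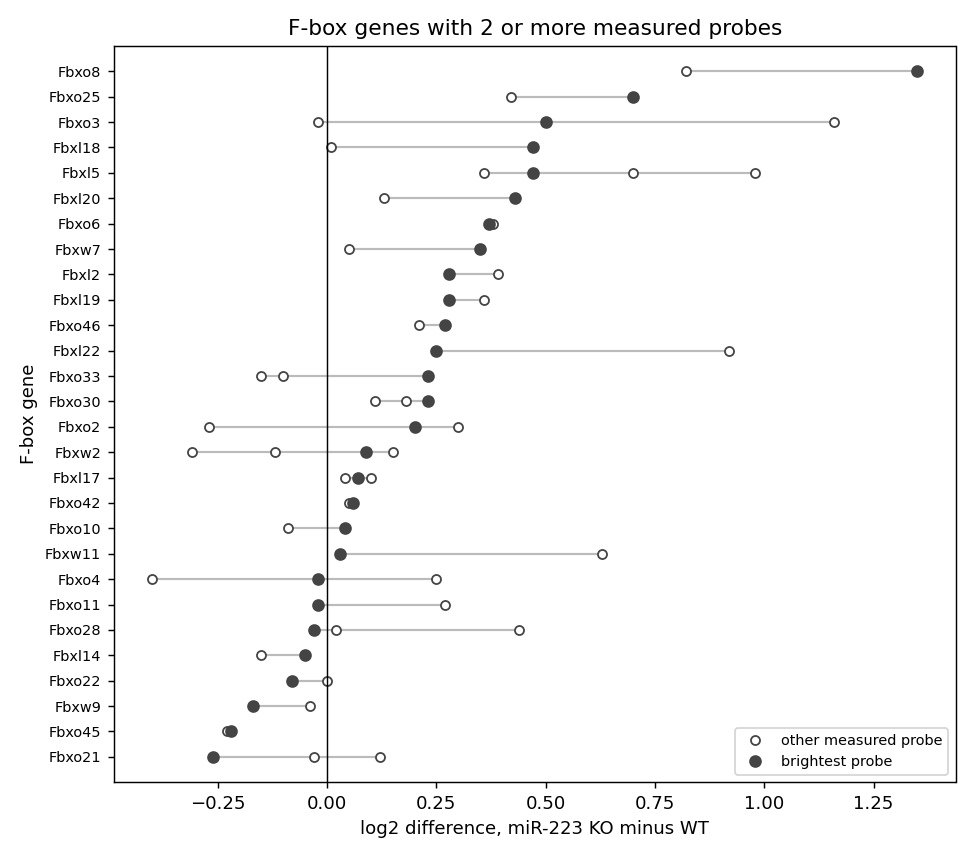
Log2 difference (KO minus WT, horizontal axis) of each measured probe of all but 1 of the 29 F-box genes with 2 or more, 1 row per gene in order of the brightest probe. Filled points are the brightest probe of a gene, open points its other probes, and grey lines join them. The Fbxo8 probes are at 1.35 and 0.82, the latter not above background on either WT array. The Fbxo3 probes run from -0.02 to 1.16, the highest above background on 1 of 2 WT arrays.

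The partners of F-box proteins showed small differences. All 27 listed genes of the SCF core and of neddylation were tested, with 19 above 0 and a median of 0.06, beside 0.03 over all genes and 0.02 for the list under quantile normalization. Of these, 2 had an unadjusted p under 0.05, both higher in KO cells (7.41%, against 8.03% of all genes), and none was called after adjustment. Cks1b, the cofactor by which Skp2 reads phosphorylated p27, stood at 5.59 and 5.36 on the KO arrays, against 5.06 and 5.0 on the WT arrays (0.44 ± 0.14, unadjusted p 0.0304). Dcun1d4, which promotes cullin neddylation, stood at -3.31 and -3.41 on the KO arrays, against -3.68 and -3.94 on the WT arrays (0.45 ± 0.15, unadjusted p 0.0368). Next by p were the E2 enzymes Ube2r2 (0.25) and Ube2d1 (0.42), the RING protein Rnf7 (-0.21) and Dcun1d1 (0.21).

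The common subunits of the ligase were flat, at -0.07 ± 0.15 for Cul1, -0.09 ± 0.15 for Skp1a and 0.17 ± 0.14 for Rbx1. The COP9 signalosome, which removes Nedd8 from cullins, had 9 tested genes, 3 above 0, a median of -0.05 and none with an unadjusted p under 0.05. Its genes of smallest p were Gps1 (-0.21), Cops5 (-0.12), Cops2 (-0.11) and Cops7b (-0.10). The 20 genes of other cullin ligases had a median of 0.07, and 1 of them (5%, against 13.6% of all genes) was at an unadjusted p under 0.05, the cytokine signalling inhibitor Socs3, lower in KO cells (-0.47 ± 0.13, unadjusted p 0.0172). Cish, Ddb2 and Cul7 followed with 0.33, 0.29 and 0.25.

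Of 8 listed F-box proteins that bear other names, 7 were tested, 2 were above 0 and the median was -0.07, beside 0.03 over all genes. At an unadjusted p under 0.05, 2 were lower in KO cells, against 5.55% of all genes. Btrc, the partner of Fbxw11 in marking IκBα, read -3.92 and -3.85 on the KO arrays, against -3.48 and -3.57 on the WT arrays (-0.36 ± 0.12, unadjusted p 0.0375, adjusted p 0.340 by limma). Kdm2b, a histone demethylase that binds CpG islands, read 0.63 and 0.47 on the KO arrays, against 1.04 and 0.86 on the WT arrays (-0.40 ± 0.14, unadjusted p 0.0456, adjusted p 0.359 by limma), with other Kdm2b probes at -0.40 and 0.01. Skp2, the F-box protein for p27, met at 2 decimals, with -1.37 and -1.24 on the KO arrays and -0.86 and -1.24 on the WT arrays (-0.25 ± 0.18), while Kdm2a had 0.07 and Ccnf -0.07.

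Ubiquitination acts on proteins, and the arrays read only the messages of the substrates. The 11 genes of Fbxw7 substrates had a median of -0.06, with 4 above 0. Klf5, a zinc-finger factor, was higher in KO cells at an unadjusted p of 0.0376 (0.40 ± 0.14), while another Klf5 probe had 0.06, and Myc had 0.31 ± 0.23. Jun stood at -0.21 and 1.29 on the KO arrays, against 1.51 and 2.37 on the WT arrays (-1.40 ± 0.59, unadjusted p 0.0712), with KO arrays that lay farther apart than the fitted difference. Ccne1, the gene of cyclin E, had -0.34 ± 0.15.

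The 22 tested genes of other F-box substrates had a median of -0.04, with 3 at an unadjusted p under 0.05 (13.6%, the share of all genes). Rrm2, the ribonucleotide reductase subunit removed by cyclin F, was higher in KO cells (0.69 ± 0.14, unadjusted p 0.00534). Ccnd1, the gene of cyclin D1, was lower (-0.97 ± 0.21, unadjusted p 0.00842), as was Bcl2 (-0.52 ± 0.13, unadjusted p 0.0147). Cdkn1a had -0.38 ± 0.15. The substrates of the leading members, picked here after their values were seen, differed little: Arf6, that of Fbxo8, had -0.16 ± 0.13 and Ireb2, that of Fbxl5, had 0.25 ± 0.14.

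**Figure D5:**
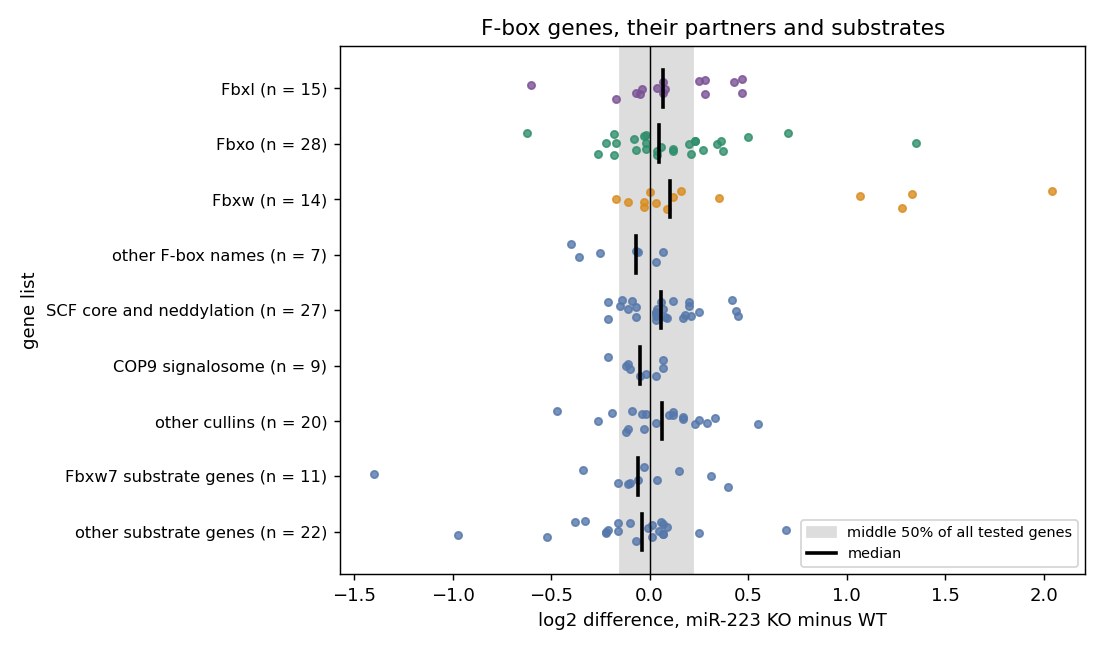
Log2 difference (KO minus WT, horizontal axis) of the tested genes of the 3 F-box subfamilies and of 6 lists of related genes (rows, with the number of genes). Points are genes, black bars are list medians and the grey band holds the middle 50% of all tested genes; the 9 medians lie between -0.07 and 0.10, and 4 Fbxw genes stand at 1.07 or above.

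The sorted cells carried the markers of granulocytes, and markers of other cells differed between genotypes. All 16 granulocyte markers on the array were above background, with a mean level of 6.09 and 6.28 on the KO arrays, against 5.74 and 6.02 on the WT arrays, and a median difference of 0.20. Of the 16, 13 were above 0, with Lcn2 at 0.81, Ngp at 0.50, Csf3r at 0.44 and Cxcr2 at 0.87 by smallest p, and 3 were below it, Mpo at -0.43, Camp at -0.18 and Gfi1 at -0.16. Of 22 tested macrophage and monocyte markers, 19 were lower in KO cells, with a median of -0.86. Their mean level over 23 markers was -0.10 and -0.18 on the KO arrays, against 0.43 and 0.72 on the WT arrays, with Mertk at -2.04, Fn1 at -1.91, Mrc1 at -1.17 and Vcan at -0.95 among the lower ones and Vsig4 not above background. The other 3 stood higher in KO cells, Adgre1 by 0.75, Ctsl by 0.86 and Ly6c1 by 0.47, and Csf1r, Cd68 and Cd14 had -0.17, -0.09 and -0.19. Of 9 tested mast cell and basophil markers, 8 were lower in KO cells, with a median of -1.35 and a mean level over 12 markers of -1.36 and -2.15 on the KO arrays, against -0.73 and -0.80 on the WT arrays. Gata2 had -1.92, Cpa3 -1.63, Il4 -1.46 and Ms4a2 -0.96, while Mcpt4, Mcpt5 and Tpsb2 were not above background. Over the 9 tested genes the KO arrays lay a median of 1.7 apart, wider than the median difference, and the WT arrays 0.11. The part of these cells in the F-box values was not tested, and in bulk RNA fewer cells of a type cannot be told apart from less RNA per cell.

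Across the 4 arrays, no spot was saturated, and the intensity at the 75th percentile was 514 and 493 on the KO arrays, against 586 and 486 on the WT arrays. Pearson correlations across genes, whose values are not independent, were 0.994 between KO arrays, 0.990 between WT arrays and 0.985 to 0.991 between genotypes. The number of arrays limits the precision: a permutation of 2 against 2 arrays cannot give a two-sided p below 0.333, so single genes were judged only by the fit across all genes.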

How the data were processed

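RNA was amplified and labelled with Cy3, per the labels' protocols, and the arrays (Agilent design 014868) were read with Agilent Feature Extraction 10.5.1.1, per the file headers. The deposited intensity of each spot is background-subtracted, with surrogate values for dim spots and no normalization between arrays, per the file headers. The deposited log2 values of the same arrays lay within 0.01 of a constant from the log2 intensity for 99.8% of 41174 probes, with a median of 5.026 on each array; how the authors made them is not given in the sources used here, and they served as an alternative.

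From the intensity, control spots and outlier flags were left out, spots of a probe were averaged on the log2 scale and each array's 75th percentile was subtracted. A gene was tested if, for 1 genotype or both, each array showed its brightest probe well above background. KO and WT were compared with limma 3.58.1 (lmFit and eBayes, two-sided, R 4.3.3) with Benjamini-Hochberg adjustment at 0.05. The fit was tested on simulated data.

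The F-box genes, the lists and the alternatives were chosen with earlier results of these data known. Named genes were Fbxw7 and Fbxo8, up to 12 members per direction with the smallest p, the 5 brightest, members measured on some arrays, members of role lists, and the members of related lists with the smallest p (6 for the SCF core, 4 for others). One tested member counts in the summaries and is not reported here by name. Probe coordinates are those of the array files (mm9), and the place of a probe within its gene was not annotated here. Of the 73 names, 69 matched RefSeq by accession. Promoters were aligned with Biopython 1.88 and probes with edlib 1.3.9.post1.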

Additional observations from a re-analysis of the deposited data

How the results depend on the processing

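The F-box results were recomputed with normexp background correction, quantile normalization, the 50th percentile, the deposited log2 values, no filter on dim probes, only genes above background on all 4 arrays, the mean over a gene's measured probes, the replicate number as a block, and without each replicate in turn. No F-box gene passed an adjusted p of 0.05 by limma under any of these. Without the filter, 7 of 73 F-box genes had an unadjusted p under 0.05 by limma, 6 of them higher in KO cells. Of all genes, 6.62% had such a p in either direction without the filter, and higher ones were not counted separately. The median of the SCF core list was 0.02 under quantile normalization. Leaving out replicates gave 5 to 12 F-box genes with an unadjusted p under 0.05 and 5 to 10 higher ones, with 5 each without KO replicate 1 and without KO replicate 2; 36 to 50 genes whose arrays did not overlap and 23 to 32 with KO above; F-box medians of 0.06 to 0.13 and SCF core medians of 0.03 to 0.08; Fbxo8 differences of 1.32 to 1.39; and Fbxw7 differences of 0.13 to 0.57. Fewer samples make groups overlap less by construction. Each of these fits leaves 1 array in a genotype. The share of all genes with an unadjusted p under 0.05 by limma, in either direction, moved too. It was lower without either KO replicate than without either WT replicate, as were the F-box counts. The spread from 5 to 12 therefore cannot be read as a result of the F-box genes alone. With a replicate left out, 57 to 59 F-box genes were tested. The arrays of the genotypes then did not overlap in 68.7% to 79.6% of all genes, and KO lay above in 39% to 43.5%. Over all genes, 332 were called without WT replicate 1, 5 with normexp and 1 with the 50th percentile.

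Of 36 named members followed through these settings, 28 never reversed their sign, among them Fbxo48, whose difference was 0 with normexp. Other members given values above, such as Fbxl14, Fbxl22, Fbxo18, Fbxo33, Fbxw13 and Fbxw21, were not followed. The signs turned for Fbxw11 (-0.04 with normexp and with quantile), Fbxo4 (0.09) and Fbxo17 (-0.05) with normexp, and Fbxo11 (0.12) and Fbxo10 (-0.03) with the mean over probes. Leaving out replicates, values ranged from -0.19 to 0.14 for Fbxo4, -0.18 to 0.14 for Fbxo11, -0.16 to 0.12 for Fbxo31, -0.02 to 0.08 for Fbxw11, -0.11 to 0.18 for Fbxo10, -0.02 to 0.41 for Fbxo2, -0.40 to 0.04 for Fbxo27 and -0.12 to 0.20 for Fbxo17. The cause was not tested. Fbxw22 and Fbxw24 have no value where all 4 arrays had to be above background.

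The labels do not say what equal replicate numbers share, and the deviations of same-numbered arrays correlated at 0.175 over 2 pairs, too few to show a pairing. With the replicate block, 10 of 57 F-box genes had an unadjusted p under 0.05 by limma, 9 of them higher. Of all genes, 14.7% had such a p in either direction with the block, and higher ones were not counted separately. As in the main fit, 28 F-box genes did not overlap, against 48.1% of all genes. The median was 0.07, Fbxo8 1.35 and Fbxw7 0.35. The unadjusted p by limma was then 0.0326 for Fbxl5, 0.0572 for Fbxo9 and 0.0726 for Fbxw22, and no other named F-box gene crossed 0.05.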
